A study of Mus musculus with 6 samples.

Results

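The genes described here were the platelet-derived growth factor (PDGF) ligands *Pdgfa*, *Pdgfb*, *Pdgfc* and *Pdgfd*, the PDGF receptors *Pdgfra* and *Pdgfrb*, and the pericyte markers *Cspg4*, *Rgs5*, *Abcc9* and *Anpep*. They were chosen by name, as the rows of a count table with these gene symbols, and each of the 10 symbols was found among the 24421 genes of the table. PDGF ligands are secreted dimers that bind and activate receptor tyrosine kinases on neighbouring cells. PDGF-A and PDGF-C act mainly through PDGFRα, PDGF-D acts mainly through PDGFRβ, and PDGF-B binds both receptors. In growing vessels endothelial cells release PDGF-B, which recruits pericytes carrying PDGFRβ, and in the stria vascularis of the cochlea pericytes wrap the capillaries of the blood-labyrinth barrier.

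RNA was sequenced from primary cultures that the labels call endothelial cells of the stria vascularis, with 3 cultures from *Nhe6*-knockout (KO) mice and 3 from wildtype (WT) mice. The *Nhe6*-knockout mice carried a targeted gene disruption, and the wildtype mice did not. The labels gave both groups the strain background C57BL/6N, whereas the study's methods named a backcross of all mice to C57BL/6J. Neither source gave the sex of the pooled mice for these libraries. Stria vascularis with spiral ligament was taken on postnatal days 10 to 12, at least 6 mice were pooled per culture, and the cells were purified by flow sorting in culture, kept in an endothelial growth medium with serum and left untreated. Each culture gave 1 library, so the p-values measure the spread between 3 pooled cultures per genotype, taken as independent.

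Genes received 25587097 to 29126232 reads in each library, and 13479 of them had enough counts for a test. Values are normalized counts, which are read counts scaled to a common library size, and fold changes are for *Nhe6*-knockout over wildtype. On the first principal component wildtype culture 2 lay at 106, and the other 5 libraries lay between -28.5 and -6.52, so the results that rest on this library are given with and without it. Of 15 endothelial markers, 7 averaged 100 normalized counts or more, among them *Emcn* (409 to 18385), *Eng* (866 to 5079), *Cd34* (793 to 4864), *Flt1* (378 to 3174) and *Tek* (189 to 1006), whereas *Cldn5* and *Robo4* had no read in any library, and *Pecam1*, the endothelial surface antigen CD31, had at most 8 reads. The endothelial adhesion gene *Cdh5* differed between the genotypes, with 179 to 232 normalized counts in *Nhe6*-knockout and 2508 to 5198 in wildtype cultures (log2 fold change -4.15 ± 0.31 SE, edgeR adjusted p = 0.0133). The counts come from whole cultures, in which fewer cells of a type and less RNA per cell cannot be told apart.

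The sequences in front of *Cspg4*, *Abcc9* and *Pdgfc* are shown. With all 6 libraries these had the log2 fold changes farthest from 0 among the 9 of the 10 genes that were tested. Without wildtype culture 2 that of *Cspg4* turned from -1.27 to 0.55. *Pdgfa* (0.94) and *Rgs5* (0.91) then lay farther from 0 than *Pdgfc* (-0.82) and *Cspg4*. The bases are those before the RefSeq transcription start on GRCm38.p6, 5′ to 3′ on the strand of the gene. Capitals mark a motif match on either strand. Bases inside the gene were left out, so 179 of 250 bases are printed for *Cspg4* and 209 for *Abcc9*. Positions given below count back from the start, not from the last base printed.
Cspg4, chr9:56864854-56865032, plus strand: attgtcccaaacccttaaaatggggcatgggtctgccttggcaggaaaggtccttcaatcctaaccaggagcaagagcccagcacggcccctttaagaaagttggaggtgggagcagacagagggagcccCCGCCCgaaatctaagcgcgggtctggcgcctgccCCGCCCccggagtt
Abcc9, chr6:142702316-142702524, minus strand: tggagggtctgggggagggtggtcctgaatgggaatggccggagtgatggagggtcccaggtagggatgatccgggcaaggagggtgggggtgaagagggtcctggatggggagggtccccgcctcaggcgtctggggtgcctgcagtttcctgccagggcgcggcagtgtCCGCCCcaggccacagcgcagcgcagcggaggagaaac
Pdgfc, chr3:81036166-81036415, plus strand: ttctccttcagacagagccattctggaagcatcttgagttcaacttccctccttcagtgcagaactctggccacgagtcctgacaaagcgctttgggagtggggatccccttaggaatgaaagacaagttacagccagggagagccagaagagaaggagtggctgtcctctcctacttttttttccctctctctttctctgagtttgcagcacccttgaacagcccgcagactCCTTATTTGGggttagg
The 250 bases before each start were searched for the GC box GGGCGG, the TATA box TATAAA, the AP-1 motif TGANTCA, the E-box CACGTG and the CArG box, the sequence bound by serum response factor. Of the 10 genes, 8 were matched in the RefSeq promoter table, and 6 had bases outside the gene that could be searched and printed here. The GC box was read on the minus strand as CCGCCC, at positions -120 and -85 of *Cspg4* and at -79 of *Abcc9*, and it was present in 32.7% of all 32851 promoter windows of this length. *Pdgfc* had a CArG box at position -17, a motif found in 1.47% of all windows. Outside the sequences printed, *Pdgfd* had a TATA box at position -160, which 12.4% of windows held, and none of the 6 genes had the AP-1 motif (6.75% of windows) or the E-box (6.02%). These matches describe the letters of the windows and not sites shown to be bound.

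Levels of different genes were compared per length, as normalized counts per kilobase of exon averaged over the 6 libraries. The 2 receptors stood at the top, with a level of 2889.6 for *Pdgfrb* and 1615 for *Pdgfra*, followed by *Anpep* with 1073. *Pdgfd* was the ligand with the highest level at 328, and *Cspg4* (107), *Pdgfc* (83.6) and *Pdgfa* (80.2) followed. *Abcc9* (14.1) and *Rgs5* (12.4) were low, and *Pdgfb*, the ligand by which endothelial cells recruit pericytes, was lowest at 1.01 normalized counts per kilobase. Of the neighbours in this order, *Anpep* and *Pdgfd*, *Pdgfa* and *Abcc9*, and *Rgs5* and *Pdgfb* had ranges over the libraries that did not overlap, and the ranges of every other pair of neighbours overlapped. *Pdgfrb* was above *Pdgfra* in 6 of 6 libraries per kilobase of all exons but in 4 of 6 per kilobase of the longest transcript, since *Pdgfra* has 10.0 kb of exon and a longest transcript of 6.83 kb. By normalized counts not divided by length, *Pdgfra* (mean 16191) and *Pdgfrb* (mean 15829) ranked at 179 and 189 among all genes of the table.

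**Figure D1:**
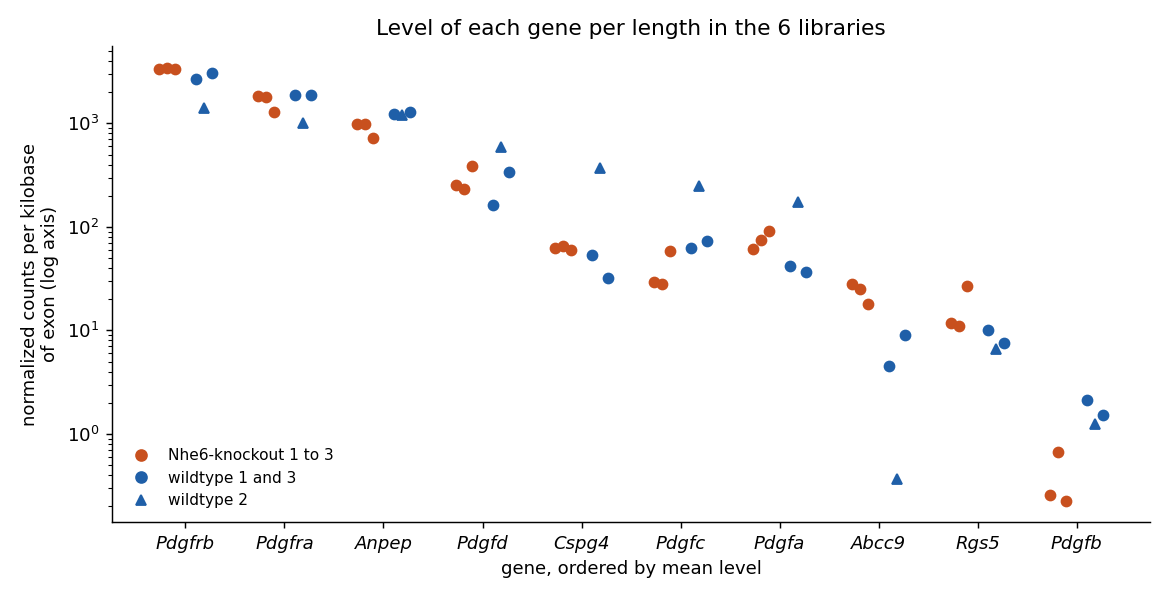
The level of each gene in each library, in normalized counts per kilobase of exon on a log axis, with genes ordered by their mean. The receptors *Pdgfrb* and *Pdgfra* lie at the top, *Pdgfb* lies at the bottom, and the triangle of wildtype culture 2 leaves the other points most clearly in *Cspg4* and *Abcc9*.

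Between the genotypes, 9 of the 10 genes could be tested, and *Pdgfb* had too few reads. None of the 9 genes passed edgeR's quasi-likelihood test at an adjusted p of 0.05, against 0.0668% of all genes tested, and the lowest adjusted p was 0.327. At an unadjusted p under 0.05 there were 3 genes, *Pdgfc*, *Abcc9* and *Anpep*, where the share among all genes was 11.8%. The normalized counts of the genotypes did not overlap for 5 of the 9 genes, against 19.9% of all genes. Of these, *Pdgfrb*, *Rgs5* and *Abcc9* were higher in each *Nhe6*-knockout culture (3 genes, background 10.3%), and *Pdgfc* and *Anpep* were lower (2 genes, background 9.57%). Fold changes on the log2 scale were above 0 for 4 genes and below 0 for 5, with a median of -0.14, and the median over all genes was -0.02.

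The ligand *Pdgfa* encodes the A chain and lies at chr5:138976014-138997370 on the minus strand of GRCm38. It had 193, 233 and 287 normalized counts in *Nhe6*-knockout and 132, 539 and 116 in wildtype cultures. Wildtype culture 2 was the highest of the 6 and the other 2 wildtype cultures were the lowest, so the genotypes overlapped only through culture 2. On the log2 scale the fold change was -0.14 ± 0.62 (SE; edgeR adjusted p = 0.952) with all libraries and 0.94 ± 0.25 (adjusted p = 0.112) without wildtype culture 2. A part of its exons lies opposite the antisense gene *6330403L08Rik*, and whether reads were counted by strand is not given in the sources used here.

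*Pdgfb*, at chr15:79995874-80014977 on the minus strand, was close to absent. It had 1, 3 and 1 reads in the *Nhe6*-knockout libraries and 9, 5 and 6 reads in the wildtype libraries. Each wildtype library held more reads than each *Nhe6*-knockout library, with 5 reads in all against 20. The ratio of *Nhe6*-knockout to wildtype, corrected for library size, was 0.238, with an exact 95% interval from 0.0698 to 0.653 that covers counting error only and not the spread between cultures. When the filter on low counts was dropped, edgeR's test gave a log2 fold change of -2.01 with an adjusted p of 0.452.

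*Pdgfc* encodes a ligand that must be cut by proteases before it binds its receptor, and lies at chr3:81036416-81214040 on the plus strand. In normalized counts it had 149, 144 and 297 in *Nhe6*-knockout cultures and 319.6, 1269.7 and 374 in wildtype cultures. Every *Nhe6*-knockout culture was below every wildtype culture, although *Nhe6*-knockout culture 3 came close to wildtype culture 1, and wildtype culture 2 stood far above the rest. The log2 fold change of -1.73 ± 0.62 (SE) had an unadjusted p of 0.0288 and an adjusted p of 0.351 in edgeR's test. Without wildtype culture 2 it was -0.82 ± 0.36, with an adjusted p of 0.282, and with DESeq2's Wald test on all libraries the adjusted p was 0.0719. *Pdgfc* shares some exonic bases with the antisense gene *Gm16000*.

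*Pdgfd*, the other ligand activated by cutting, lies at chr9:6168584-6378850 on the plus strand. It had 800.4, 735 and 1237 normalized counts in *Nhe6*-knockout and 516, 1856 and 1061 in wildtype cultures. The wildtype cultures held both the lowest and the highest value, so that the genotypes overlapped fully. With all libraries the log2 fold change was -0.31 ± 0.46 (SE; edgeR adjusted p = 0.85), and 0.22 without wildtype culture 2 (adjusted p = 0.787).

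The receptor gene *Pdgfra*, at chr5:75152292-75198215 on the plus strand, encodes PDGFRα, a receptor of many fibroblasts and mesenchymal cells. It had 18317, 17861 and 13011 normalized counts in *Nhe6*-knockout cultures and 19046, 10083 and 18828 in wildtype cultures. One culture of each genotype was lower than the others, wildtype culture 2 most of all, and the means of 16397 ± 2940.4 and 15985 ± 5113 (SD, n = 3) were close together. *Pdgfra* had a log2 fold change of 0.04 ± 0.29 (SE; edgeR adjusted p = 0.97), and without wildtype culture 2 it was -0.21 ± 0.18 (adjusted p = 0.587). Some of its exonic bases are shared with *Gm42802*, *Gm42803* and *Mir7025*.

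*Pdgfrb*, at chr18:61045150-61085061 on the plus strand, encodes PDGFRβ, the receptor by which pericytes respond to PDGF-B. It reached 18463, 18983 and 18353 normalized counts in *Nhe6*-knockout and 14678, 7789.6 and 16708 in wildtype cultures. The *Nhe6*-knockout cultures lay within a narrow band above every wildtype culture, and the wildtype cultures were spread out, with culture 2 at the bottom. The means were 18599.7 ± 336 and 13059 ± 4675 (SD, n = 3), and the log2 fold change of 0.51 ± 0.29 (SE) had an adjusted p of 0.554 in edgeR's test. Without wildtype culture 2 the difference was 0.24 ± 0.13, with an adjusted p of 0.388.

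The balance of the receptors within a library does not depend on library scaling. The ratio of *Pdgfra* to *Pdgfrb* per kilobase of all exons was 0.542, 0.514 and 0.387 in *Nhe6*-knockout cultures and 0.709, 0.707 and 0.616 in wildtype cultures. By this length the ratio was below 1 in each library, but per kilobase of the longest transcript *Pdgfrb* was above *Pdgfra* in only 4 of 6 libraries. Each *Nhe6*-knockout culture was below each wildtype culture, an order that does not depend on the length chosen. Wildtype culture 2, which had low counts of both receptors, had nearly the same ratio as wildtype culture 1. The log2 ratio averaged -1.07 ± 0.26 in *Nhe6*-knockout and -0.56 ± 0.12 in wildtype cultures (SD, n = 3), a difference of -0.51 that corresponds to a 1.42-fold higher ratio in wildtype. An exact two-sided permutation test over the libraries gave p = 0.1, which is the smallest p that 3 against 3 cultures allow, so this design could not reach 0.05. The difference stayed between -0.60 and -0.36 when each culture was left out in turn, and the value nearest to 0 was the one without *Nhe6*-knockout culture 3.

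**Figure D2:**
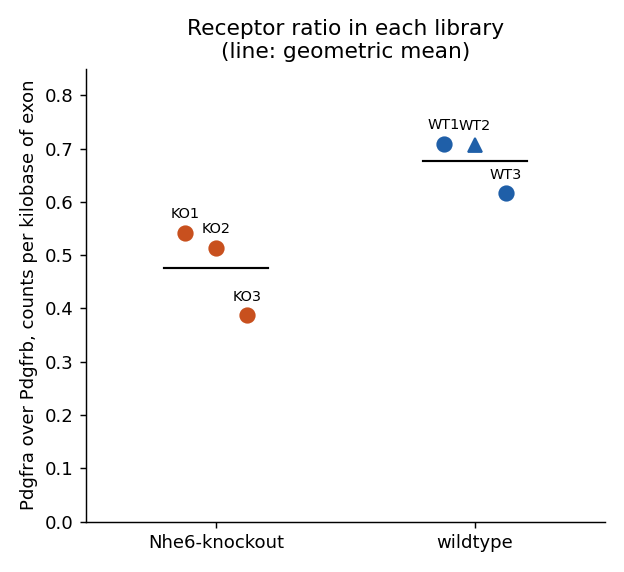
The ratio of *Pdgfra* to *Pdgfrb*, each in counts per kilobase of all exons, in each library, with the geometric mean of each genotype as a line. The 3 *Nhe6*-knockout cultures lie between 0.387 and 0.542 and the 3 wildtype cultures between 0.616 and 0.709.

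The genes whose log2 values, centred on their own mean, lay closest to those of each receptor over the 6 libraries were named as a description of the pattern, among the 11126 genes that averaged 100 normalized counts or more. For *Pdgfra* these were *2810001G20Rik*, *Map3k1* and *Dennd2a*, with root mean square differences of 0.0562, 0.0673 and 0.0728, where the median over all genes was 0.435. For *Pdgfrb* these were *Zic5*, *Nol4l* and *Adgrg6*, with differences of 0.0776, 0.0865 and 0.0865 and a median of 0.521. Chosen for this likeness, each of these 6 genes also had its lowest count in wildtype culture 2, where the receptors had theirs. The receptors themselves lay 0.302 apart, which placed *Pdgfrb* at rank 1551 among the genes closest to *Pdgfra* and *Pdgfra* at rank 551 among those closest to *Pdgfrb*.

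*Cspg4*, at chr9:56865033-56899870 on the plus strand, encodes the proteoglycan NG2, a surface marker of pericytes and other mural cells. It had 748, 782 and 718 normalized counts in *Nhe6*-knockout and 634, 4407 and 385 in wildtype cultures. The *Nhe6*-knockout cultures were close together and above wildtype cultures 1 and 3, whereas wildtype culture 2 was 8.65-fold above the mean of the other wildtype cultures. *Cspg4* had a log2 fold change of -1.27 ± 0.88 (SE; edgeR adjusted p = 0.645) with all libraries, and it turned to 0.55 ± 0.23 (adjusted p = 0.258) without wildtype culture 2.

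*Rgs5*, at chr1:169655501-169695813 on the plus strand, encodes a regulator of G-protein signalling that is abundant in pericytes of many vessels. It had 54.1, 50.2 and 123 normalized counts in *Nhe6*-knockout and 45.9, 29.9 and 34.2 in wildtype cultures. Every *Nhe6*-knockout culture was above every wildtype culture, but *Nhe6*-knockout cultures 1 and 2 were only slightly above wildtype culture 1, and culture 3 was well above the rest. *Rgs5* had a log2 fold change of 1.04 ± 0.46 (SE; edgeR adjusted p = 0.448), and without *Nhe6*-knockout culture 3 it was 0.50 (adjusted p = 0.748).

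*Abcc9*, at chr6:142587862-142702315 on the minus strand, encodes the sulfonylurea receptor SUR2, the regulatory subunit of the ATP-sensitive potassium channel of pericytes and smooth muscle. It had 232, 208 and 149.5 normalized counts in *Nhe6*-knockout and 38.1, 3.09 and 75.9 in wildtype cultures. Every *Nhe6*-knockout culture was well above every wildtype culture, and wildtype culture 2 was close to 0, with 3 reads. The means were 197 ± 42.7 and 39.0 ± 36.4 (SD, n = 3), and the log2 fold change of 2.33 ± 0.89 (SE) had an unadjusted p of 0.0379 and an adjusted p of 0.385 in edgeR's test. Without wildtype culture 2 the log2 fold change was 1.78 ± 0.39 (adjusted p = 0.0743), and with DESeq2's Wald test it had an adjusted p of 0.102 on all libraries. DESeq2's test without wildtype culture 2, a setting added after the data were seen, gave 1.79 with an adjusted p of 0.000486. The partner of SUR2 in this channel, *Kcnj8*, had at most 14.9 normalized counts in any library. *Abcc9* shares some exonic bases with the antisense gene *5330439B14Rik*.

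*Anpep*, at chr7:79821803-79861059 on the minus strand, encodes aminopeptidase N (CD13), a surface enzyme of pericytes that fibroblasts and other cells also carry. It had 4085, 4124 and 3020.3 normalized counts in *Nhe6*-knockout and 5046, 5009.8 and 5329 in wildtype cultures. Every *Nhe6*-knockout culture was below every wildtype culture, and here wildtype culture 2 was level with the other wildtype cultures. The means were 3743 ± 626 and 5128 ± 175 (SD, n = 3), and the log2 fold change of -0.45 ± 0.15 (SE) had an unadjusted p of 0.0241 and an adjusted p of 0.327 in edgeR's test. Without wildtype culture 2 it was -0.48 ± 0.17, with an adjusted p of 0.198.

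**Figure D3:**
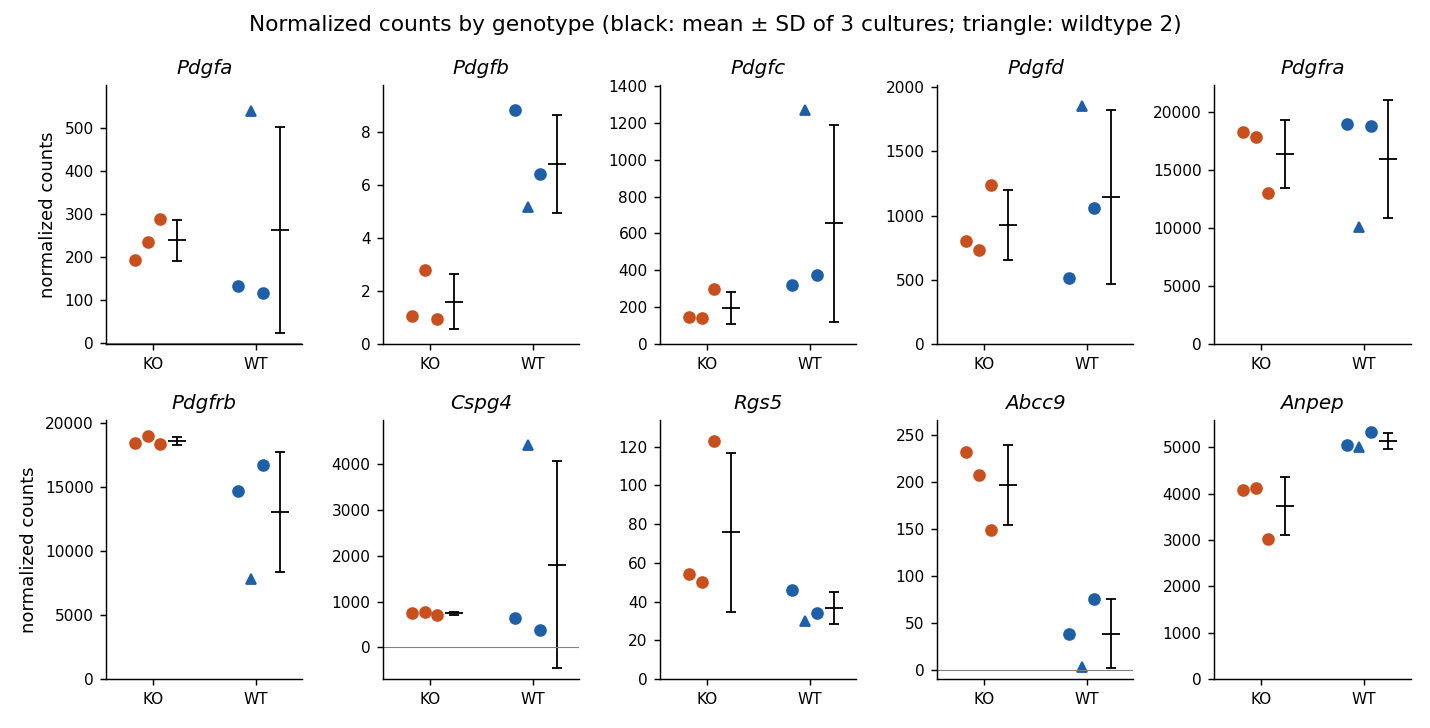
Normalized counts of each gene in the *Nhe6*-knockout (KO) and wildtype (WT) cultures, 1 panel per gene with its own linear axis, with the mean ± SD of 3 cultures in black and wildtype culture 2 as a triangle. The genotypes do not overlap for *Pdgfb*, *Pdgfc*, *Pdgfrb*, *Rgs5*, *Abcc9* and *Anpep*, and wildtype culture 2 stands far above the other cultures for *Pdgfa*, *Pdgfc* and *Cspg4*.

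Wildtype culture 2 set the spread of most of these genes. Of the 9 genes tested, 8 had their highest or lowest value in this culture, against 53.3% of all genes, and 6 differed by more than 2-fold from the mean of the other wildtype cultures, against 22.0%. The ligands *Pdgfa* (4.36-fold), *Pdgfc* (3.66-fold) and *Pdgfd* (2.35-fold) and the marker *Cspg4* were highest there (4 genes, background 26.8%). The receptors and *Rgs5* and *Abcc9* were lowest there (4 genes, background 26.5%), with *Pdgfra* at 0.532, *Pdgfrb* at 0.496, *Rgs5* at 0.746 and *Abcc9* at 0.0543 times the mean of the other wildtype cultures. *Anpep* was at 0.966 times that mean. When this culture was left out, the log2 fold change changed its direction for 4 of the 9 genes (*Pdgfa*, *Pdgfd*, *Pdgfra* and *Cspg4*), against 17.8% of all genes, and none of the 9 genes passed edgeR's test, against 2.88% of all genes. At an unadjusted p under 0.05 there were 3 genes without this culture, *Pdgfa*, *Abcc9* and *Anpep*, against 19.5% of all genes, and *Pdgfc* was no longer among them. DESeq2's Wald test also called none of the 9 genes on all libraries (background 4.69%), with 3 genes at an unadjusted p under 0.05 (background 13.9%). Without wildtype culture 2 it called *Abcc9* and *Pdgfa*, with an adjusted p of 0.0187 for *Pdgfa*, 2 of 9 genes against 10.0% of all genes, both higher in *Nhe6*-knockout cultures (background 5.63%).

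**Figure D4:**
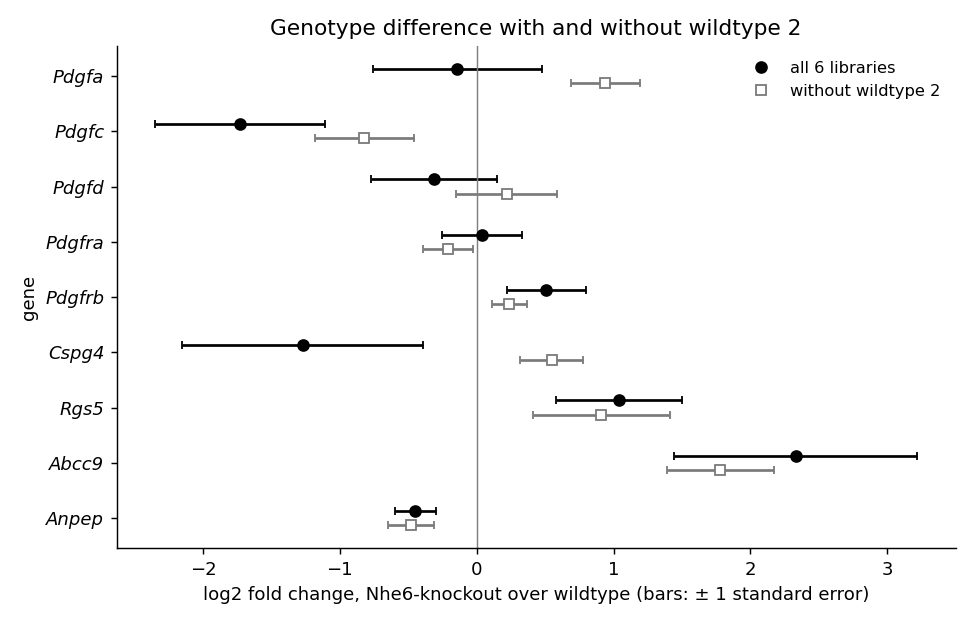
The log2 fold change of *Nhe6*-knockout over wildtype for the 9 genes tested, with all 6 libraries (filled circles) and without wildtype culture 2 (open squares), with bars of ± 1 standard error. The estimates of *Pdgfa*, *Pdgfd*, *Pdgfra* and *Cspg4* cross 0 between the settings, and those of *Abcc9* (2.33 and 1.78) and *Anpep* (-0.45 and -0.48) stay on their side.

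Markers of other cell types also moved in wildtype culture 2. The summed normalized counts of 9 smooth muscle genes were 23800.1 in this culture and between 1528 and 4758 in the other 5, mainly through the contractile genes *Acta2* (16267) and *Tagln* (5337), while *Pln* had no read in any library. The sum of 17 fibroblast genes was 516656 against 327091 to 403871, with *Col1a1* at 27174 normalized counts, but 8 of these genes were highest in this culture and 6 were lowest, and each of the 17 had reads. Sums were lower in this culture for 9 macrophage genes (66 against 552 to 1436), 6 epithelial genes (3.09 against 56.8 to 1088) and 8 melanocyte genes (288 against 409 to 1152). The sum of 15 endothelial genes was 15983 against 16875 to 25933, with *Emcn* at 409 against 9896 to 18385, and without *Emcn* it was the highest, at 15573 against 6979 to 10234. Of the endothelial genes tested, 6 were highest and 3 were lowest in this culture. The sum of 6 glial genes, 804, lay within the range of 415 to 813. *Aif1*, *Krt5* and *Krt14*, markers of macrophages and of basal epithelium, were at or under 3 reads in every library, and so was the endothelial gene *Tie1*. Along with the genotype, the sum of 12 cell cycle genes ranged from 7509 to 13564 in *Nhe6*-knockout and from 2299 to 3547 in wildtype cultures. Of the 17 fibroblast genes, 11 had a log2 fold change above 0 and 6 below 0. DESeq2's test called 2 of them (background 4.69%), *Dcn* (1.00, adjusted p = 5.42e-05) and *Col5a1* (1.09, adjusted p = 0.0054), both higher in *Nhe6*-knockout cultures. In edgeR's test their adjusted p was 0.0952 and 0.182. The endothelial genes *Cdh5*, given above, and *Flt1* were lower in each *Nhe6*-knockout culture. For *Flt1* the log2 fold change was -1.79 ± 0.50 (SE; edgeR adjusted p = 0.242, DESeq2 adjusted p = 0.0104). Of the 9 endothelial genes tested, 4 had a log2 fold change above 0 and 5 below 0. *Tek* had 815, 837 and 748 normalized counts in *Nhe6*-knockout and 189, 1006 and 309 in wildtype cultures. Its log2 fold change was 0.67 ± 0.59 (SE; edgeR adjusted p = 0.723) with all libraries. Without wildtype culture 2 it was 1.68 (edgeR adjusted p = 0.0342). The part of these differences in the values of the PDGF and pericyte genes was not tested.

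Other pericyte markers showed the same culture apart. Of 15 such genes, which do not include the 4 markers above, 12 were tested, with 8 log2 fold changes above 0 and 4 below 0, and a median of 0.15. None passed edgeR's test on all libraries, 1 gene had an unadjusted p under 0.05 (background 11.8%), and 3 were higher in *Nhe6*-knockout cultures without overlap (background 10.3%). *Notch3*, a Notch receptor of mural cells, had 1842, 1945 and 2828 normalized counts in *Nhe6*-knockout and 692, 1379 and 722 in wildtype cultures. Every *Nhe6*-knockout culture was higher than every wildtype culture, with wildtype culture 2 the closest to them. *Notch3* had a log2 fold change of 1.24 ± 0.32 (SE; edgeR adjusted p = 0.209), an adjusted p of 0.0155 in DESeq2's test and an adjusted p of 0.0307 in edgeR's test without wildtype culture 2, where the log2 fold change was 1.64. *Des*, which encodes the intermediate filament desmin, had 167, 122 and 88.9 normalized counts in *Nhe6*-knockout and 51.8, 4.13 and 56.7 in wildtype cultures (log2 fold change 1.74 ± 0.82 SE, edgeR adjusted p = 0.472, DESeq2 adjusted p = 0.291). *Cox4i2*, a cytochrome oxidase subunit, did not overlap either but had at most 21.8 normalized counts. *Vtn*, the gene of vitronectin, ranged from 5.68 to 26 in *Nhe6*-knockout and from 2.06 to 269.8 in wildtype cultures. Its log2 fold change was -2.92 ± 1.39 (SE; edgeR adjusted p = 0.477, DESeq2 adjusted p = 0.208). Without wildtype culture 2 it was -3.50 ± 0.74 (edgeR adjusted p = 0.0684).

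The pericyte markers with the highest levels were *Tbx18*, a transcription factor of mural and mesenchymal cells (4339 to 14644 normalized counts), *Ebf1* (1194 to 15805) and *Nes*, the gene of nestin (1351 to 10135). Each of them was lowest in wildtype culture 2. *Nes* had 5090.4, 5314 and 5981 normalized counts in *Nhe6*-knockout cultures, below wildtype cultures 1 (8215) and 3 (10135). Its log2 fold change was -0.27 ± 0.64 (SE; edgeR adjusted p = 0.911), and -0.75 ± 0.15 (adjusted p = 0.0609) without wildtype culture 2. Without that culture it was -0.21 for *Tbx18* and -0.36 for *Ebf1* (edgeR adjusted p of 0.748 and 0.606). At the other end *Higd1b* had no read in any library, and *Kcnj8*, *Art3* and *Ndufa4l2* stayed under 20 normalized counts. Wildtype culture 2 was the lowest of the 6 libraries for 9 of the 12 genes, against 26.5% of all genes, and the sum of the 15 markers was 8377 in this culture and 24273 to 41633 in the other 5. High *Pdgfrb* and *Anpep* stood beside low *Rgs5* and *Abcc9* and an unread *Higd1b* in the same libraries.

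**Figure D5:**
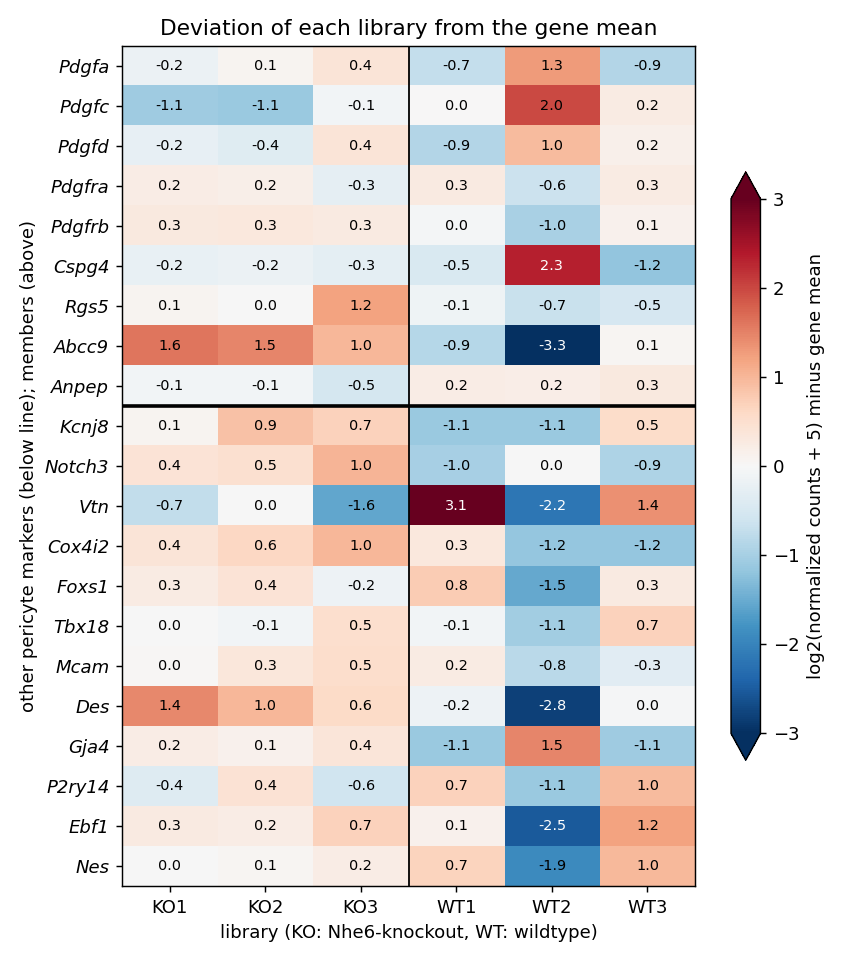
The deviation of each library from the mean of the gene, in log2(normalized counts + 5), for the 9 genes tested (above the line) and the 12 other pericyte markers tested (below it), with *Nhe6*-knockout (KO) on the left and wildtype (WT) on the right. Among the 9 genes above the line, the column of wildtype culture 2 holds the darkest cells of both signs, from -3.3 for *Abcc9* to 2.3 for *Cspg4*.

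The wider PDGF pathway was described through a list of 61 genes for ligand processing, co-receptors, receptor adaptors and enzymes, downstream kinases and factors, and negative regulators. Of the 60 genes tested, 34 had a log2 fold change above 0 and 26 below 0, and the median was 0.06 beside -0.02 over all genes. None passed edgeR's test on all libraries, and 12 of the 60 genes (background 11.8%) had an unadjusted p under 0.05. The genotypes did not overlap for 21 genes (35.0%, background 19.9%). With DESeq2's Wald test 5 genes were called, each higher in *Nhe6*-knockout cultures (background 2.85% of all genes), and without wildtype culture 2 edgeR's test called 1 gene, against 2.88% of all genes, which was *Serpine2* (log2 fold change 1.14, adjusted p = 0.0379), a protease inhibitor gene.

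Among 8 genes for the processing of ligands, 6 were above 0, with a median of 0.29. *Furin*, which encodes a convertase that cuts PDGF-A and PDGF-B precursors, had 2948, 3301 and 3305 normalized counts in *Nhe6*-knockout and 2445, 2413 and 1806 in wildtype cultures, without overlap (log2 fold change 0.52 ± 0.15 SE, edgeR adjusted p = 0.262, DESeq2 adjusted p = 0.0971). *St14*, the gene of matriptase, also did not overlap, with 84.9, 112 and 88 normalized counts against 67.4, 38.2 and 28.9 (1.08 ± 0.40 SE, edgeR adjusted p = 0.367, DESeq2 adjusted p = 0.191). Of the 3 co-receptor and receptor-like genes, *Lrp1*, a large endocytic receptor that associates with PDGFRβ, had 95336, 108054 and 75699 normalized counts in *Nhe6*-knockout and 63750.1, 62610.1 and 43910.3 in wildtype cultures. Every *Nhe6*-knockout culture was above every wildtype culture (0.71 ± 0.26 SE, edgeR adjusted p = 0.363, DESeq2 adjusted p = 0.0624). *Nrp1*, which encodes neuropilin 1, and the receptor-like gene *Pdgfrl* overlapped between the genotypes, with log2 fold changes of 0.09 and -0.30.

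The 20 receptor adaptors and enzymes tested had a median of -0.08, with 9 above 0 and 11 below 0. *Shc1*, an adaptor that links receptors to Ras, had 9760.4, 9896 and 9064 normalized counts in *Nhe6*-knockout and 7809, 7285 and 6907 in wildtype cultures (0.38 ± 0.12 SE, edgeR adjusted p = 0.3, DESeq2 adjusted p = 0.0385). *Sos2*, a Ras exchange factor, and *Gab1*, a docking protein, were lower without overlap, with log2 fold changes of -0.44 and -0.34 (edgeR adjusted p of 0.364 and 0.446, DESeq2 adjusted p of 0.261 and 0.421). The 16 downstream kinases and factors had a median of -0.16, with 6 above 0 and 10 below 0. *Stat3*, a transcription factor that cytokine receptors also activate, was higher in each *Nhe6*-knockout culture than in any wildtype culture (0.47 ± 0.12 SE, edgeR adjusted p = 0.203, DESeq2 adjusted p = 0.00343). The kinase gene *Mapk3* was lower (-0.50 ± 0.16 SE, edgeR adjusted p = 0.294, DESeq2 adjusted p = 0.0877).

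The negative regulators of receptor signalling had a median of 0.45, with 11 of 13 genes above 0, and a median of 0.50 without wildtype culture 2, where that of the ligand processing genes was 0.54. In 7 of the 13 genes every *Nhe6*-knockout culture was above every wildtype culture, against 10.3% of all genes. *Spry1*, the gene of the Ras pathway inhibitor Sprouty 1, had 663, 581 and 190.2 normalized counts in *Nhe6*-knockout and 145, 98 and 104 in wildtype cultures. *Nhe6*-knockout cultures 1 and 2 were far above the wildtype cultures, and culture 3 was nearer to them. The log2 fold change of *Spry1* was 2.05 ± 0.48 (SE), with an adjusted p of 0.166 in edgeR's test and of 0.00188 in DESeq2's test. *Cblb*, which encodes a ubiquitin ligase for activated receptors, had 4134, 3949 and 3582 normalized counts in *Nhe6*-knockout and 2455, 2593 and 3039 in wildtype cultures (0.53 ± 0.13 SE, edgeR adjusted p = 0.185, DESeq2 adjusted p = 0.0258). The phosphatase genes *Ptpn1* and *Ptpn12* were also higher without overlap, with log2 fold changes of 0.53 and 0.40 (edgeR adjusted p of 0.27 and 0.375, DESeq2 adjusted p of 0.114 and 0.319). The cell cycle genes given above were higher in the same *Nhe6*-knockout cultures, and their part in the pathway values was not tested.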

How the data were processed

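Per the labels and the study's methods, poly(A)-enriched stranded libraries were sequenced for 75 cycles on a NextSeq instrument. The submitters' processing notes name bcl2fastq 2.20.0.422, STAR 2.7.7a, HTSeq 0.13.5, DESeq2 1.26.0 and mm10, and the strand setting of the counting is not given in the sources used here. The authors deposited raw read counts per gene symbol, and 21.5% to 23.6% of the reads of each library stood in 5 summary lines outside genes, which were left out. Genes were filtered with filterByExpr (minimum count 10), scaled with TMM and tested on genotype alone with edgeR 4.0.16 (two-sided quasi-likelihood test, R 4.3.3), with Benjamini-Hochberg adjustment over the 13479 genes tested and a threshold of 0.05. Dividing the absolute log2 fold change by the square root of F gave its SE. Permutations used scipy 1.17.1. Positions and exon lengths came from GENCODE M21 (GRCm38), and promoter sequences from RefSeq (GRCm38.p6).

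The text names all 10 genes and, from each other list, those called, up to 4 with the smallest p, and for markers the highest and the defining ones near 0. *Serpine2*, *Col1a1* and *Tek* fell outside this rule and were chosen after their values were seen. The lists of cell types other than pericytes and endothelial cells were named only in part by this rule. No gene of the glial, melanocyte and cell cycle lists was named. The genes and lists were chosen with earlier results of these data known. The alternatives numbered 15: DESeq2 1.42.0, limma-voom (limma 3.58.1), other normalizations and filters, a replicate block, each culture left out, and 2 added after the data were seen. Counts of *Nhe6*-knockout cultures 1 and 2 differed least among replicates but beyond sampling noise (chi-square per degree of freedom 4.91, other pairs 90.1 to 398). Both were kept. A difference beyond sampling noise does not show that these libraries came from independent cultures, which was not tested. With their counts summed, edgeR's test called 1 gene over all genes. The tests were tried on simulated counts without an outlying culture, so this trial does not cover the spread seen here. The targeted gene and 1 pathway gene are not reported here.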

Additional observations from a re-analysis of the deposited data

How the results depend on the processing

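Over all genes, edgeR's test called 9 at an adjusted p of 0.05. There were 627 with DESeq2, 21 with at least 10 counts in every library, 21 without the filter, 1 with *Nhe6*-knockout cultures 1 and 2 summed, 1373 with DESeq2 without wildtype culture 2, and 0 to 395 with each culture left out (395 without wildtype culture 2). With a replicate block there were 2, 1 of them among the 9. Whether the replicate numbers pair the samples was not settled. Same-numbered cultures correlated across genes at 0.207, -0.189 and 0.111, and not every culture correlated best with its own number. With so few cultures these values cannot exclude pairing, and the numbers were treated as names.

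Of the 10 genes, 0 were called in each of these settings except DESeq2 without wildtype culture 2, with 2. For the pathway, DESeq2 called 5 genes (background 4.69%) and DESeq2 without wildtype culture 2 called 9 (background 10.0%). Leaving out each culture gave 0 to 1, with the 1 without wildtype culture 2 (background 2.88%). For the other pericyte markers these counts were 1, 4 and 0 to 1, beside the same backgrounds. Directions turned for *Pdgfa*, at 0.94 with DESeq2 without wildtype culture 2, 0.22 with limma-voom and 0.22 with the replicate block (-0.50 to 0.94 with each culture left out). They turned for *Pdgfd*, at 0.23 with DESeq2 without that culture (-0.66 to 0.22 with each left out), and for *Cspg4*, at 0.55 (-1.76 to 0.55). For *Pdgfra* the value was -0.21 with DESeq2 without that culture, -0.04 with the summed cultures, and -0.21 to 0.18 with each left out, with -0.05 and -0.03 without *Nhe6*-knockout cultures 1 and 2. Why these values turned was not tested. Of 134 values of single genes, 120 kept direction and side of the threshold, 13 turned, and 2 passed the threshold with DESeq2 without wildtype culture 2 (*Abcc9*, 1.79, and *Pdgfa*, which is 1 of those that turned). The receptor ratio difference kept its sign throughout. With 3 cultures per genotype the SE of a log2 fold change ran from 0.15 (*Anpep*) to 0.89 (*Abcc9*), which limits what could be detected.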
